A study of Symphysodon aequifasciata with 2 samples.

Results

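Gonadotropin-releasing hormone (GnRH) genes were read from a brain transcriptome of the discus (Symphysodon aequifasciatus), an ornamental cichlid. Features were taken where the deposited gene name was gnrh1, gnrh2 or gnrh3, or where the protein match contained the words gonadoliberin or gonadotropin-releasing hormone. Of 40209 features, 3 were hormone genes and 1 was a receptor, which is reported apart. The data comprised 1 library from the brain of a male and 1 from the brain of a female, both aged 1 year and from 1 breeding laboratory, with no treatment named other than the anaesthetic MS-222 at 100 mg/L at death. The deposited table was built from poly(A) RNA of brain tissue, and its values were read as TPM, a relative transcript level scaled by transcript length. A feature is a transcript cluster assembled from the reads. With 1 library per sex there was no test between sexes, so each difference describes these 2 libraries, and sex cannot be told apart from the individual fish or its library. Sex follows the gender labels, although the title of the library labelled male begins with O and that of the library labelled female with T. No value reported here checks those labels.

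GnRH peptides are short neuropeptides cut from longer precursors. In teleosts, GnRH1 neurons lie mainly in the preoptic area and reach the pituitary, where the peptide acts on cells that release luteinising and follicle-stimulating hormone. GnRH2 neurons lie in the midbrain tegmentum and are known for neuromodulation of feeding and reproductive behaviour. GnRH3 neurons belong mainly to the terminal nerve of the olfactory region and the ventral forebrain, and are known for links to reproductive motivation. GnRH receptors are membrane receptors that signal through Gq proteins, phospholipase C and protein kinase C.

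All 3 hormone genes and the receptor had higher values in the female library, by 1.21-fold to 2.59-fold. Over all features the median log2 ratio, female over male, was −0.07. The counting intervals of gnrh3 and the receptor held 1. Given its male value, the direction of gnrh2 was fixed by the selection of the table, as described below. The gnrh1 feature, which encodes the hypophysiotropic form, measured 21.5 TPM in the male brain against 45.5 TPM in the female. The gnrh2 feature measured 3.89 and 10.1 TPM, and the gnrh3 feature 36.1 and 43.6 TPM. Of the 3 hormone genes 2, gnrh1 and gnrh2, exceeded a 2-fold difference on the scale of log2(TPM + 0.5). Such a difference towards the female library was found for 5.02% of the whole table, and one towards the male library for 10.1%. Among the 10056 features of 300 to 450 bases, the length range of the hormone and receptor features, the shares were 5.89% and 12.6%. In that range the 95% counting interval of the fold lay above 1 for 14.0% of features and below 1 for 22.6%.

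**Figure D1:**
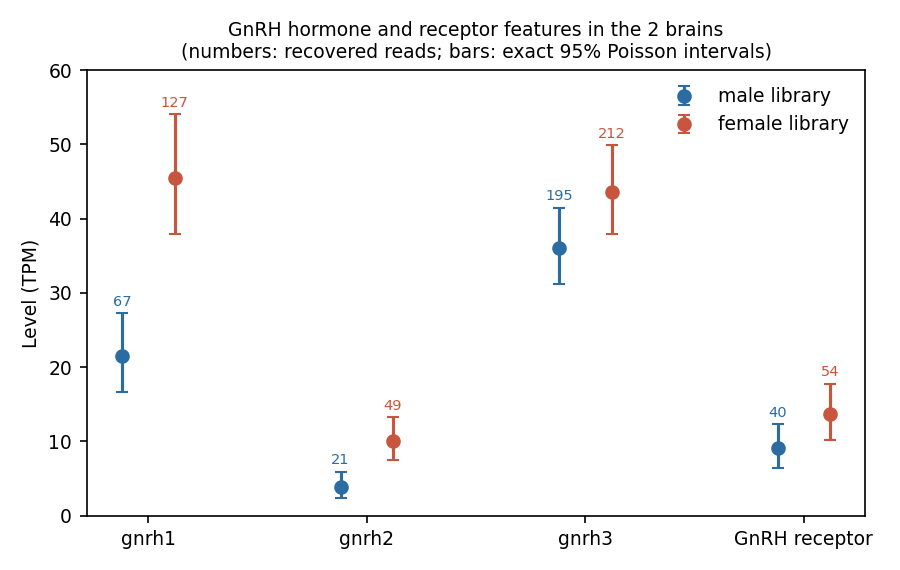
Level in TPM of the hormone genes gnrh1, gnrh2 and gnrh3 and of the GnRH receptor feature in the male (blue) and female (red) library, 1 library each. Bars are exact 95% Poisson intervals of the recovered reads, whose number stands above each point. The intervals of gnrh1 (16.7 to 27.3 and 37.9 to 54.1 TPM) and gnrh2 (2.41 to 5.94 and 7.46 to 13.3 TPM) were apart, while those of gnrh3 and the receptor overlapped. The gap of gnrh2 is partly fixed by the selection of the table, as described below.

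The precision of these values was set by few reads. At a given length, TPM values moved in whole multiples of a step, taken as the worth of 1 read or read pair. Of the values under 60 steps, 93.7% of 19321 male and 93.6% of 19810 female values lay within 0.1 of a whole number. By chance this share would be 20% for a step chosen without regard to the values. The steps were searched on these same values, so the chance share after the search would be higher and was not computed. Steps were found for every length from 201 to 450 bases, which covers all 4 features. The sum over the table came to about 26400000 reads in the male brain and 24200000 in that of the female, an approximation because steps of longer features follow a fitted line. Intervals given here hold counting error alone, leave out any spread among fish, and are too narrow if duplicate reads were present.

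The gnrh1 feature (TRINITY_DN15088_c0_g1, 328 bases) had its closest protein match in the seabream-type precursor of Cichlasoma dimerus, a South American cichlid. It rested on 67 reads in the male brain and 127 in that of the female, where 1 read was worth 0.321 and 0.358 TPM. The female level was 2.12-fold the male level, with an exact (Clopper-Pearson) 95% interval of 1.56 to 2.89. The log2 ratio of 1.06 lay just past the 2-fold line. Among the 29941 features with at least 6.01 TPM in both libraries, which gnrh1 also reached, 2.39% were past 2-fold with the female higher and 4.24% with the male higher. By level, gnrh1 stood at percentile 81.5 of all features in the male and at percentile 94.3 in the female library.

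The gnrh2 feature (TRINITY_DN12517_c1_g8, 392 bases) matched the chicken-II-type precursor of the same cichlid. It had the lowest level of the hormone genes in both libraries, with 21 reads in the male brain and 49 in that of the female. The ratio was 2.59-fold (95% interval 1.53 to 4.55), or 1.27 on the log2 scale. Every feature of the table reached 6.01 TPM in at least one library. The male value of gnrh2 was under that limit, so the feature was listed through its female value alone, and a female value at the limit would already have been 1.54 times the male one. Given the male value, its direction is therefore fixed by the selection of the table, and its place past 2-fold is partly fixed. In the male library gnrh2 stood at percentile 2.39 of all features and in the female library at percentile 48.9.

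The gnrh3 feature (TRINITY_DN8877_c0_g1, 392 bases) matched progonadoliberin-3 of the amberjack Seriola dumerili. It was the best covered of the hormone genes, with 195 reads in the male brain and 212 in that of the female. The female level was 1.21-fold the male level, and the 95% interval of 0.99 to 1.48 held 1, so a difference was not resolved at this depth. The upper end of that interval lies under the 2-fold line. Its percentile by level was 91.8 in the male brain and 94.0 in the female.

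**Figure D2:**
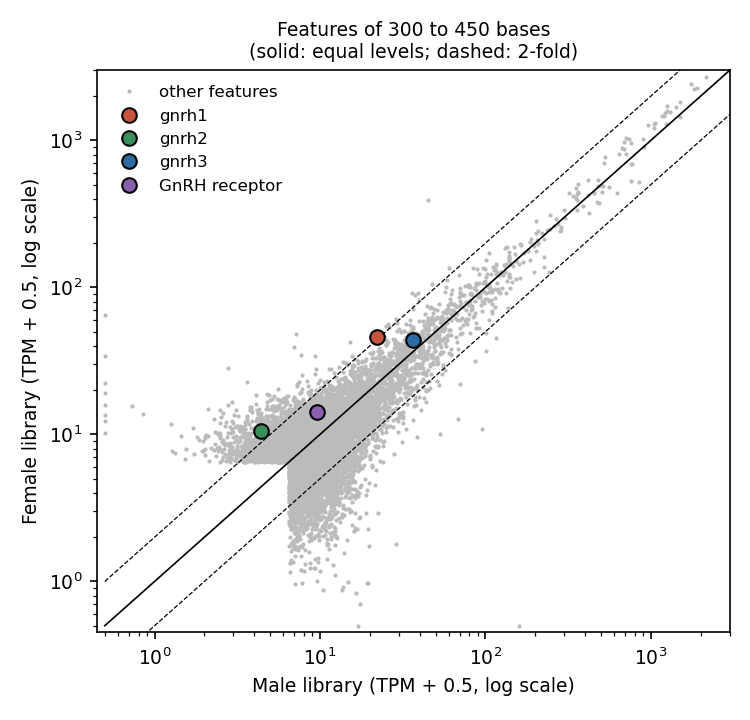
Level in the male library (x axis) against the female library (y axis), both as TPM + 0.5 on log scales, for the 10056 features of 300 to 450 bases (grey), with gnrh1, gnrh2, gnrh3 and the GnRH receptor in colour. The solid line marks equal levels and the dashed lines 2-fold; gnrh1 and gnrh2 lie just past the upper dashed line, gnrh3 and the receptor between the lines. The empty lower left corner is the region under 6.01 TPM in both libraries.

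Assembly can spread a gene over several features. No other feature shared the identifier stem of gnrh1. One other feature of 233 bases, without a protein match, shared the stem of gnrh3 and measured 7.87 TPM in the male brain against 20.3 TPM in the female, over 9 and 21 reads (2.57-fold, 95% interval 1.13 to 6.38). The table does not say whether it belongs to gnrh3. Added to the gnrh3 feature, a step chosen after its values were seen, it gave 43.9 TPM in the male brain against 63.9 TPM in the female, or 1.45-fold. The stem of gnrh2 was shared by 10 other features. Of these, 7 had a protein match, all to unrelated genes such as Tmem145 and BIRC6. Among the rest, a feature of 279 bases measured 6.49 and 15.05 TPM over 12 and 25 reads (2.32-fold, 95% interval 1.12 to 5.06). The others without a match had ratios of 0.935 and 1.04. Whether any of them belongs to gnrh2 is not settled. Each hormone gene thus had 1 annotated feature, and the 3 hormone features were the only ones in the table with the orthology entry or the GO term of this hormone.

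The hormone genes can be set against each other within each library, which needs no scaling between libraries. Such ratios rest on the worth of 1 read at each length. In the male library that worth was 0.321 TPM at 328 bases and 0.185 TPM at 392 bases. This fall is steeper than the rise in length, and any error in it is outside the counting intervals. In the male library the order was gnrh3, gnrh1, gnrh2, and neighbours in that order differed beyond counting error. The gnrh1 level was 0.596 times that of gnrh3 (95% interval 0.444 to 0.79) and 5.52 times that of gnrh2 (3.34 to 9.51). In the female library gnrh1 and gnrh3 were close to each other, at a ratio of 1.04 with an interval of 0.831 to 1.31 that held 1. This closeness holds on the TPM scale only, since it sets 127 reads of gnrh1, each worth 0.358 TPM, against 212 reads of gnrh3, each worth 0.206 TPM. In the same library gnrh1 was 4.51 times gnrh2 (3.22 to 6.41).

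Between libraries, the ratio of gnrh1 to gnrh3 was 1.75 times as high in the female library (95% interval 1.21 to 2.54). With the unannotated feature added to gnrh3, this value was 1.46. The gnrh2 and gnrh3 features have the same length and so the same worth per read. The ratio of gnrh2 to gnrh3 was 0.108 in the male brain and 0.231 in the female. It was 2.14 times as high in the latter (1.21 to 3.91). Because gnrh2 was listed through its female value alone, this excess is partly fixed by the selection of the table, which the interval leaves out. The ratio of gnrh1 to gnrh2 was 0.817 times as high in the female library, with an interval of 0.428 to 1.52 that held 1. Relative to gnrh3, the log2 ratios of gnrh1 and gnrh2 between libraries were 0.81 and 1.10, so gnrh1 then lay under 2-fold.

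**Figure D3:**
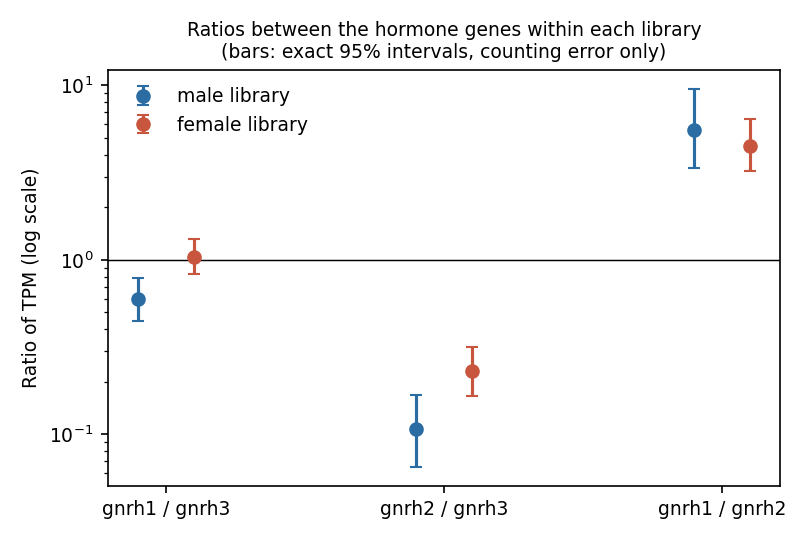
Ratio of TPM between pairs of hormone genes (x axis) within the male (blue) and the female (red) library, on a log scale, with exact 95% intervals for counting error. The horizontal line marks equal levels; gnrh1 lies below gnrh3 in the male library (0.596) and level with it in the female library (1.04).

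Summed over the 3 hormone genes, GnRH transcripts measured 61.5 TPM in the male brain against 99.2 TPM in the female, a ratio of 1.61. The gnrh1 share of this sum was 35.0% in the male brain and 45.9% in the female. The gnrh3 share was 58.7% and 44.0%, and the gnrh2 share 6.33% and 10.2%. Of the difference of 37.7 TPM between the sums, gnrh1 made up 63.6%, gnrh3 20.0% and gnrh2 16.4%. The gnrh2 difference was partly fixed by the selection of the table, and the gnrh3 difference was not resolved beyond counting error. With the unannotated feature of its stem added, gnrh3 measured 43.9 and 63.9 TPM, so the gnrh1 shares and its part of the difference would be smaller.

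A single receptor feature was found (TRINITY_DN13194_c2_g2, 366 bases), matched to a GnRH II receptor-like protein of the damselfish Stegastes partitus and carrying no gene name. It measured 9.06 TPM over 40 reads in the male and 13.6 TPM over 54 reads in the female library. The ratio was 1.51-fold and its 95% interval, 0.982 to 2.33, held 1. The receptor level was 0.251 times that of gnrh3 in the male and 0.313 times in the female library. No feature carried one of the 5 receptor gene names that were looked for, so the receptor subtype rests on this protein match alone. The identifier stem of the receptor feature was shared by 10 other features. Of these, 4 had a protein match, all to unrelated genes such as PCSK2 and AKAP13. Among the rest the ratios ran from 0.221 to 3.32, with only the highest above 1. Whether any of them belongs to the receptor is not settled.

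Regulators that act on GnRH neurons were sparsely matched by gene name, with 4 of 24. All 4 lay within 2-fold, and the list median was −0.38 on the log2 scale, against −0.07 over all features. Galanin (gal), a peptide that modulates GnRH release in mammals, measured 25.0 TPM in the male brain against 27.5 TPM in the female. The neurokinin B receptor gene tacr3 measured 11.8 and 6.5 TPM over 14 and 7 reads. A tachykinin-3-like feature, found by its protein name after the data were seen, measured 13.8 and 17.3 TPM. No feature was named for kisspeptins, their receptors or the gonadotropin-inhibitory peptide npvf.

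Enzymes that cut and finish peptide precursors showed close values in both libraries. Of 14 such genes 8 were measured, 7 of them within 2-fold, with a median of −0.02. The convertase gene pcsk2 measured 46.3 TPM in the male brain against 45.1 TPM in the female, and carboxypeptidase E (cpe), which trims basic residues and was the most abundant, 255 and 281 TPM. Glutaminyl cyclase (qpct), which forms the blocked N terminus that GnRH peptides carry, measured 25.3 and 25.1 TPM. The amidating enzyme gene pam, found under the name pam-b after the data were seen, measured 12.6 and 9.2 TPM. Past 2-fold was pitrm1, a mitochondrial protease put on this list as a peptide-degrading enzyme, with a male level of 19.0 TPM and a female level of 5.8 TPM. That female value was under the 6.01 TPM limit, so pitrm1 was listed through its male value. All 8 features had at least 1000 bases. At that length 0.373% of all features were past 2-fold towards the female library and 1.01% towards the male. The convertase gene pcsk1 measured 27.7 and 20.5 TPM.

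Genes for migration and fate of GnRH neurons, known largely from inherited GnRH deficiency in humans, were measured for 16 of 36, with a median of 0.02. None was past 2-fold towards the female library and 2 were past it towards the male library, where 10.1% of all features and 13.5% of those under 1000 bases lay. These were the guidance receptor gene plxna1, with a male level of 16.2 TPM and a female level of 4.97 TPM, and nsmf, at 26.4 and 8.1 TPM. Both were on features under 300 bases. The female value of plxna1 was under the 6.01 TPM limit, so its feature was listed through its male value. The genes plxna1 and nsmf had 4 and 3 features, and with all features of a gene summed no gene of the list was past 2-fold. The extracellular matrix gene anos1, behind X-linked Kallmann syndrome, measured 13.5 and 13.2 TPM. The chemokine gene cxcl12 measured 9.67 and 16.6 TPM and its receptor gene cxcr4 12.0 and 6.74 TPM. The most abundant member was stub1, a ubiquitin ligase, at 29.6 and 27.2 TPM.

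Transcription factors with binding sites or known roles at the mammalian GnRH promoter were measured for 16 of 28, with a median of 0.09. Past 2-fold, both towards the female library, were six6 at 8.14 and 19.1 TPM (95% interval of the fold 1.40 to 3.96) and nkx2-1 at 3.88 and 13.5 TPM, against 5.02% of all features and 5.89% of those of 300 to 450 bases. The male value of nkx2-1 was under the 6.01 TPM limit, so it was listed through its female value, and among the 10 factors on features of at least 1000 bases none was past 2-fold. The nkx2-1 feature has its closest protein match in the sister gene nkx2-4, so its assignment is uncertain, and both factors are also general markers of the developing hypothalamus. The homeobox gene otx2 measured 12.9 and 15.8 TPM, and the most abundant member, pbx3, 67.2 and 44.6 TPM.

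Downstream of the receptor, 27 of 34 genes were measured and 26 lay within 2-fold, with a median of −0.16. The Gq subunit gnaq measured 15.7 TPM in the male brain against 13.6 TPM in the female, phospholipase C plcb1 22.0 and 23.4 TPM, and protein kinase C prkca 51.2 and 46.5 TPM. The most abundant member was map2k1, a kinase of the MAP kinase cascade, at 65.1 and 59.2 TPM. The exception was itpr2, an inositol trisphosphate receptor gene, at 19.5 and 1.14 TPM on a feature of 284 bases, over 38 and 2 reads. That female value was under the 6.01 TPM limit, so the feature was listed through its male value. The gene had 3 features, and another, of 399 bases, measured 8.8 and 3.91 TPM. By the deposited pathway annotation, 138 features besides the hormone and receptor features belonged to GnRH signalling, both of these itpr2 features among them. Of these, 1 was past 2-fold towards the female library and 14 towards the male, that is 0.725% and 10.1%, against 5.02% and 10.1% of all features. All 15 were under 1000 bases long. Of the 60 pathway features under that length, 1.67% were past 2-fold towards the female library and 23.3% towards the male. The shares over all features under 1000 bases were 6.71% and 13.5%. Most of the 14 pathway features past 2-fold towards the male library had female values under 6.01 TPM. Those were listed through their male values. The feature towards the female library, at 5.68 TPM in the male, was listed through its female value. These shares count features and not genes, since itpr1 and itpr2 were each named more than once among the 14. Of the 78 pathway features of at least 1000 bases none passed 2-fold, against 0.373% and 1.01% of all features of that length.

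Markers of the preoptic area, where gnrh1 neurons mainly lie, and of the wider hypothalamus were listed together. Of those matched by name, 6 of 9 were past 2-fold towards the female library. With the matches added later, described below, it was 6 of 12. In brain tissue RNA, fewer cells of a type and less RNA per cell cannot be told apart. Of 25 preoptic and hypothalamic markers 9 were measured, all with a log2 ratio of 0 or more, 6 of them past 2-fold towards the female library, against 5.02% of all features, and the median was 1.68. Their summed level was 82.5 TPM in the male brain against 180.6 TPM in the female. The melanin-concentrating hormone gene mch had a male level of 7.53 TPM and a female level of 34.0 TPM. Its relative mch2 measured 7.02 and 44.3 TPM. The appetite peptide gene agrp measured 1.76 and 10.8 TPM, and otpb, which specifies neuroendocrine neurons, 4.05 and 10.9 TPM over 7 and 17 reads. The hypothalamic homeobox features named nkx2-1, given above, and nkx2-4, at 1.31 and 7.36 TPM, completed the 6. Both had their closest protein match in nkx2-4, so whether they are 1 gene or 2 is not settled. With the nkx2-1 feature left out, 5 of 8 markers were past 2-fold and the median was 1.71. As with gnrh2, 4 of the 6 were under 6.01 TPM in the male library and were listed through the female value. Of the 5 markers that reached it in both libraries, 2 were past 2-fold, against 2.39% of all features that did.

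The genes of 4 other peptides of the preoptic area or hypothalamus lay within 2-fold. So did the marker genes lhx6, with a ratio of 1.04, and foxb1, at 1.16. The list does not separate preoptic from other hypothalamic markers. Corticotropin-releasing hormone (crh), the stress peptide, measured 24.9 TPM in both libraries. Vasotocin and isotocin, found by protein name, had ratios of 1.41 and 0.882, and trh, under the name trha, 1.06. With these 3 added the median of the list was 0.91, with 6 of 12 past 2-fold, and the summed levels were 418.8 and 499.4 TPM, a far smaller relative difference than without them. The part of these markers in the gnrh1 result was not tested.

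Telencephalic and olfactory markers, the region of gnrh3 neurons, were measured for 6 of 16, all within 2-fold, 4 with a log2 ratio below 0 and 2 above, with a median of −0.52 and sums of 78.1 TPM in the male brain against 61.2 TPM in the female. Eomes, the most abundant, measured 33.0 and 22.1 TPM, and the same feature also counts among the cerebellar and hindbrain markers. The gene tbr1 measured 13.7 and 7.32 TPM, while emx2 measured 6.19 and 7.86 TPM and lhx9 11.7 and 15.1 TPM. The gnrh3 level was 36.1 and 43.6 TPM. Midbrain markers, the region of gnrh2 neurons, were measured for 11 of 21, all within 2-fold, 9 with a log2 ratio above 0 and 2 below, with a median of 0.39 and sums of 107.5 and 137.1 TPM. Among them lmx1a measured 3.27 and 6.94 TPM, a log2 ratio of 0.98 just inside the threshold, and was listed through its female value. The most abundant, barhl1, measured 18.0 and 23.7 TPM, while tal1 measured 19.1 and 18.3 TPM and tal2 6.13 and 4.96 TPM. Centring on the median of features of at least 1000 bases, or summing all features of a gene, put 1 midbrain marker past 2-fold. The 11 cerebellar and hindbrain markers measured of 22 were within 2-fold, with a median of 0.18, and zic1, at 147 and 165 TPM, was the most abundant. The part of the telencephalic and midbrain markers in the gnrh3 and gnrh2 values was not tested.

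Pituitary markers were measured for 3 of 20, with sums of 15.8 TPM in the male brain against 44.3 TPM in the female. No feature was named for the gonadotropin subunits lhb, fshb and cga, for gh or for prl, which mark pituitary tissue. The features named pomc and pomca, for proopiomelanocortin, which hypothalamic neurons also express, measured 6.05 and 15.5 TPM and 4.4 and 22.7 TPM. They share an identifier stem, and the pomca feature has its closest protein match in a proopiomelanocortin B. Whether they are separate genes is not settled. One of 13 pineal and retina markers was measured, rho, at 11.7 and 12.2 TPM.

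**Figure D4:**
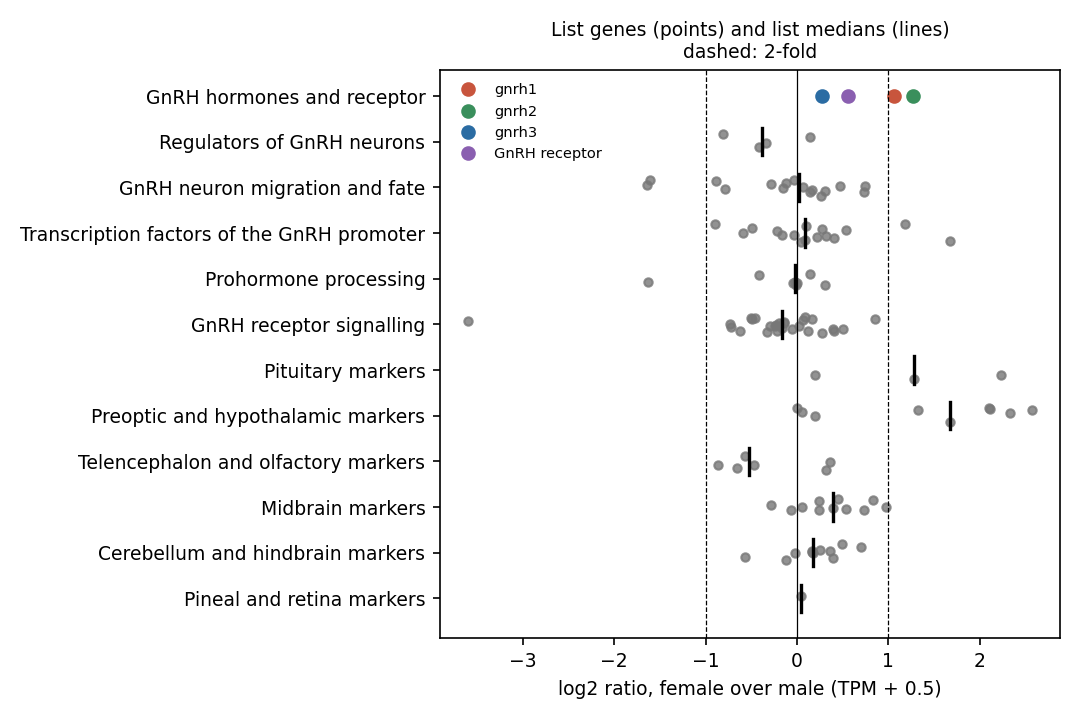
The log2 ratio of female over male (TPM + 0.5) on the x axis for the GnRH hormone and receptor features (coloured, top row) and for each measured gene of the lists (grey points, 1 row per list), with a black line at each list's median and dashed lines at 2-fold. Preoptic and hypothalamic markers had a median of 1.68, or 0.91 with the matches added later, which are not drawn. Prohormone processing and receptor signalling genes lay near 0, with medians of −0.02 and −0.16.

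By nearness of level in both libraries, the 3 closest named features of at least 500 bases were MAP1S, CIZ1 and ints3 for gnrh1, with distances of 0.0907 to 0.202 on the log2 scale. For gnrh2 they were LGALS3, RHBDD1 and Bnc1, at 0.155 to 0.197, and for gnrh3 smdt1, pxn1 and Asb13, at 0.0248 to 0.0431. MAP1S, a microtubule-associated protein, measured 20.5 TPM in the male brain against 47.5 TPM in the female. This likeness covers 2 libraries only.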

How the data were processed

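The deposited values were taken as TPM, one column per library, matched to the libraries by title. The unit is not named in the file header and was inferred from the column sums, the steps of the values with length and the naming of Salmon. Per the submitters' processing notes, Salmon, edgeR, cutadapt and FastQC were used, with neither role nor version given. The aligner settings and a genome are not given in the sources used here. Feature identifiers have the form that Trinity gives. Per the labels' protocols, 5 µg of RNA with a RIN above 7.0 was poly(A)-selected and sequenced in paired ends with inserts of about 300 bp. The kit named there does not mark strand, so reads of antisense transcripts cannot be told apart.

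Log2 ratios are log2((female + 0.5) / (male + 0.5)) of TPM, which understates ratios of low features, and folds are plain ratios of TPM. No test between sexes was run. Steps in TPM per read were searched at each length from 201 to 450 bases and, for longer features, taken from a straight line fitted from 400 to 450 bases. Reads gave exact Poisson and Clopper-Pearson 95% intervals, and exact conditional intervals for ratios of ratios.

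The hormone genes and the 12 lists (258 entries) were chosen with earlier results of these data known. List genes were matched by name, each by its feature with the highest mean. Named are all hormone and receptor features, list genes past 2-fold, the most abundant of each list, further examples chosen after their values were seen, and the 3 nearest features. One match, ttf1, was left out because its protein is another gene, and 10 matches by protein name or symbol variant were added after the data were seen. Procedures were tested on simulated data. Computation used SciPy 1.17.1, pandas 2.3.3 and NumPy 2.4.6 in Python 3.11.15, and figures Matplotlib 3.10.9. Some list genes are not reported here by name.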

Additional observations from a re-analysis of the deposited data

How the results depend on the processing

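Of 121 recomputed values, 117 stayed within their reference interval. This was the counting interval of the fold, the interval of the list median or, for shares, the reach of an exact binomial interval of the reads. Part of that count was fixed in advance. The most abundant feature alone, a minimum of 10 TPM and the step at 380 bases could not change the log2 ratio of a hormone gene. For the shortest lists, the interval of the median spans the values of all measured genes. The 4 that moved were shares of the hormone genes, which as shares of reads rather than TPM were 23.7% and 32.7% for gnrh1 and 68.9% and 54.6% for gnrh3 in the male and female library, because the gnrh1 feature is shorter. The log2 ratio of gnrh1 ran from 1.05 to 1.14 under other pseudocounts and centrings, that of gnrh2 from 1.18 to 1.35, that of gnrh3 from 0.27 to 0.34 (0.53 with the unannotated feature of its stem) and that of the receptor from 0.54 to 0.64. Counted by the step at 380 bases, reads gave fold intervals of 1.67 to 2.71 (gnrh1), 1.51 to 4.78 (gnrh2) and 0.985 to 1.5 (gnrh3). Summing all features of each gene left none of the 2 migration genes past 2-fold. Pituitary markers at a minimum of 10 TPM, and several lists at a minimum of 1000 bases, kept fewer than 3 genes and gave no value. Each hormone gene had 1 feature, so its total equals that feature. No paired analysis was possible because there is 1 library per sex. Depth limits gnrh2 most, with 21 reads in the male library, and the spread between fish was not measured.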
